A study of Mus musculus with 24 samples.

Results

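The ovaries of 25-month-old mice were compared with those of 3-month-old mice across all genes of the deposited count table. The comparison took the 3 libraries that the labels place at 25 months of natural aging and the 3 at 3 months, 6 of the 24 libraries of the series. The other libraries belong to 6 groups of 3 mice: natural aging at 6, 9, 12 and 18 months, and mice given ABT263, a senolytic drug, at 6 and 9 months. The study's methods name C57BL/6J mice and RNA from each homogenized ovary, and the labels name no treatment and no altered allele for either age. The labels number the ovaries of an age 1 to 3, here called mouse 1, 2 and 3. Per the study, each library of an age came from a mouse of its own.

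The mouse ovary is built around follicles, each an oocyte with a shell of granulosa cells and, later, a layer of androgen-making theca cells. Primordial follicles are formed around birth and are used up with age, after which ovulation and the cycle of follicles and corpora lutea end. Old mouse ovaries are also known for lymphocytes, macrophages that fuse into multinucleated giant cells, and fibrous stroma. In RNA of a whole organ, fewer cells of a type and less RNA per cell cannot be told apart, which holds for every level given here.

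The libraries held 18371745 to 20029940 counts at 3 months and 16818554 to 19160572 at 25 months, so depth differed little between the ages. Levels are given as CPM, counts scaled to a common library size after the TMM correction that edgeR makes for library composition, in the order mouse 1, mouse 2 and mouse 3. Fold changes are log2 values from edgeR's quasi-likelihood test, with Benjamini-Hochberg adjustment over all genes tested, and genes with an adjusted p under 0.05 are said to have risen or fallen. The 3 old mice were not alike. On the first principal component of the 18 natural aging libraries, which took 52.3% of the variance, the 3-month mice lay at -46.1, -35.4 and -43.9, the 18-month mice at 34.8, 48.7 and -3.92, and the 25-month mice at 97.6, 86.1 and 53.6. Mouse 3 of 25 months was thus the nearest of its group to the younger mice.

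Of 17683 genes tested, 2692 rose and 2021 fell at 25 months, which is 15.2% and 11.4%. A change of at least 4-fold was found for 1081 of the rising and 729 of the falling genes, and the median log2 fold change of all genes tested was 0.0061. The levels of the 3 old and the 3 young mice did not overlap for 4694 of the 4713 called genes (26.7% of those tested). Without overlap, the old mice were above the young in 23.1% and below them in 22.2% of all genes tested. Without mouse 3 of 25 months, 3171 genes rose and 2752 fell. The counts were most reduced without mouse 3 of 3 months (1674 and 1226) and without mouse 1 of 3 months (1751 and 1272), and without mouse 2 of 25 months the falling genes numbered 1290. The plot of fold change against level shows most immunoglobulin, T cell and interferon-stimulated genes above 0, and most oocyte and mitotic genes below it. Of the 36 steroid genes tested 4 lay above 0, and the list's median log2 fold change was -0.82.

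**Figure D1:**
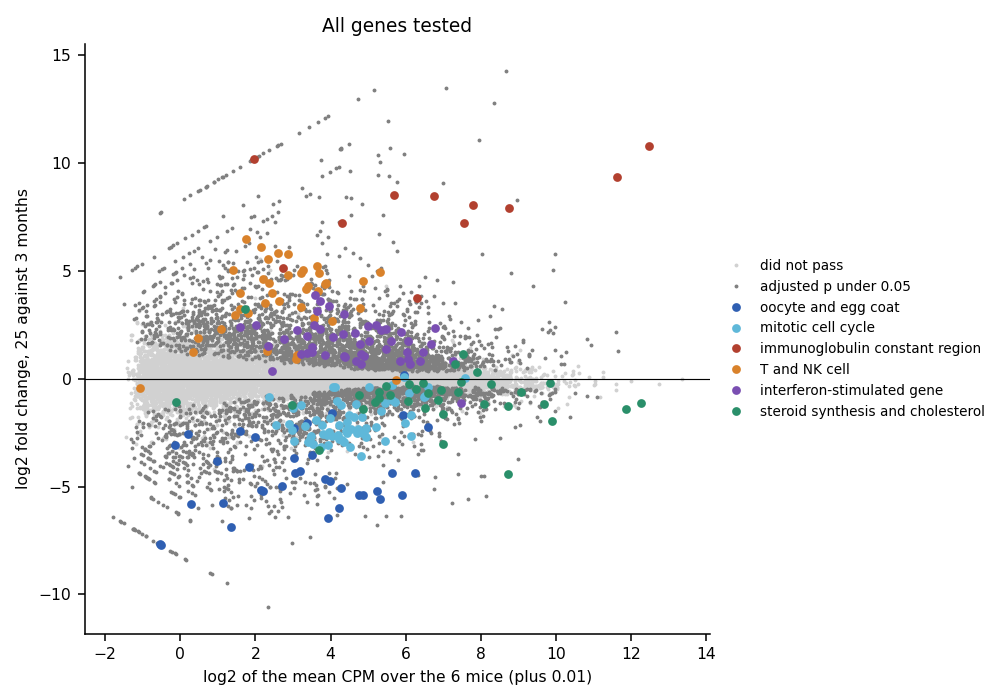
Each point is 1 of the 17683 genes tested, with the log2 of its mean CPM over the 6 mice on the x axis and its log2 fold change at 25 against 3 months on the y axis, dark grey where the adjusted p was under 0.05 and coloured for 6 gene lists. The immunoglobulin constant regions lie highest and the oocyte genes lowest of the coloured lists.

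Members of 39 gene lists were counted against these shares. The lists were written with earlier results of these data known, so the counts are a description and not a test. Lists of lymphocytes, macrophages, antigen presentation and interferon response rose almost throughout. Oocyte and cell division lists fell almost throughout, and the list of granulosa cells fell in most of its members. Genes of steroid and cholesterol synthesis, of the matrix and of smooth muscle mostly did not pass the test. Of the lists, those for mitochondrially encoded genes, red blood cells and the oviduct had no called member.

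**Figure D2:**
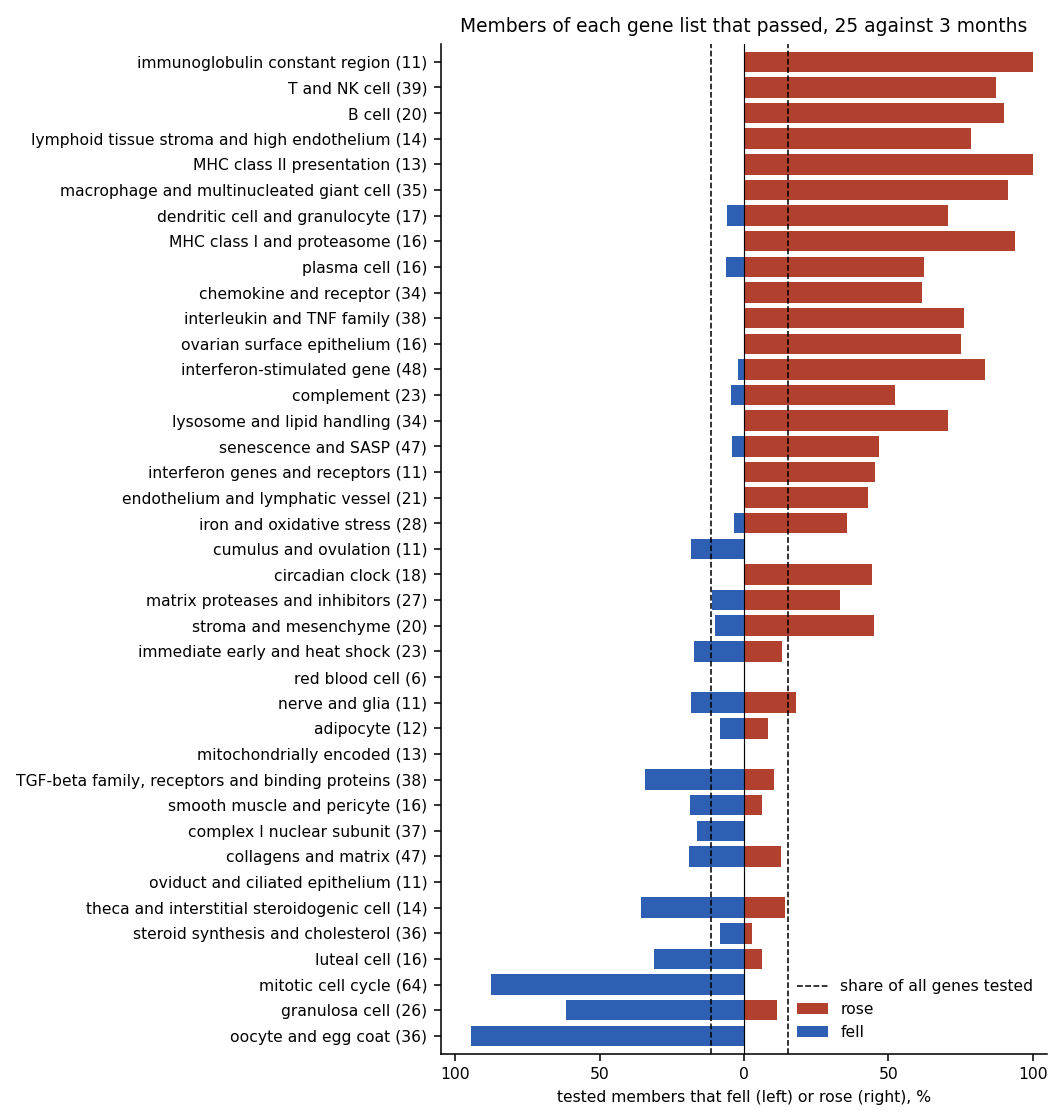
Bars give the percentage of the tested members of each list that rose (right, red) or fell (left, blue) at 25 against 3 months, with the number tested in parentheses and dashed lines at the shares of all genes tested, 15.2% and 11.4%. Lists are ordered by their median log2 fold change, from 8.07 for immunoglobulin constant regions to -4.51 for the oocyte list.

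Oocyte RNA was low at 25 months. Of 36 oocyte genes tested, 34 fell and 0 rose, with a median log2 fold change of -4.51. The egg coat genes Zp1, Zp2 and Zp3, the oocyte growth factors Gdf9 and Bmp15, and the oocyte transcription factors Nobox, Figla and Lhx8 were among those that fell. Zp1 (ENSMUSG00000024734, chr19:10914287-10920632, on GRCm38) had 25.9, 36.3 and 28.9 CPM at 3 months and 0.214, 0.785 and 0 CPM at 25 months (log2 fold change -6.44, standard error 0.71, edgeR adjusted p = 0.00164). Bmp15 (ENSMUSG00000023279, chrX:6314107-6320721), a factor the oocyte sends to granulosa cells, had 45.2, 39.5 and 25.1 CPM at 3 months and 0.536, 0.994 and 0.117 CPM at 25 months (log2 fold change -6.01, standard error 0.56, edgeR adjusted p = 0.000998). Both genes were below every young mouse in every old mouse.

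The old mice still differed in what oocyte RNA remained. Zp2, which encodes the egg coat protein that binds sperm, had 72.8, 85.7 and 62.6 CPM at 3 months and 0.268, 5.44 and 0.117 CPM at 25 months (log2 fold change -5.22, standard error 1.02, edgeR adjusted p = 0.00922). Zp3, another egg coat gene, had 0.268, 3.61 and 0.0586 CPM at 25 months against 53.03, 65.8 and 52.3 at 3 months (log2 fold change -5.40, standard error 0.95, edgeR adjusted p = 0.00628). Gdf9 had 2.52, 9.00 and 2.34 CPM at 25 months against 102, 103 and 79.4 (log2 fold change -4.34, standard error 0.52, edgeR adjusted p = 0.00201). In all 3 genes mouse 2 had the most of the old mice, and its Zp2 level was a little under that of the 18-month mice (6.39, 8.76 and 7.08 CPM). Nlrp5, a maternal-effect gene of the egg, was also highest in mouse 2, with 0.375, 3.296 and 0 CPM at 25 months and 60.2, 56.4 and 41.2 at 3 months (log2 fold change -5.39, standard error 0.96, edgeR adjusted p = 0.00673). Over the list, 21 of 36 genes were highest in mouse 2. Figla, a regulator of the primordial follicle and the egg coat, had 1.66, 1.54 and 0.821 CPM at 3 months and no count in any old mouse. The 2 oocyte genes that did not pass were Ooep, with 27.8, 26.8 and 19.5 CPM at 3 months and 2.84, 5.02 and 16.9 CPM at 25 months (log2 fold change -1.57, edgeR adjusted p = 0.0927), and Kit, with 93.2, 45.4 and 38.5 CPM at 3 months and 54.3, 75.9 and 66.8 CPM at 25 months (log2 fold change 0.16, edgeR adjusted p = 0.749). Kit, a receptor of the oocyte, is also made by mast cells. Where at least 10 counts were required in every mouse, 11 of the oocyte genes were tested and 9 fell.

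Granulosa cell genes fell in most members, though not all of them. Of 26 tested, 16 fell and 3 rose (61.5% and 11.5%, against 11.4% and 15.2% of all genes), with a median log2 fold change of -2.52. Without mouse 3 of 3 months 1 rose. Genes of growing follicles were among those that fell: Amh, the anti-Mullerian hormone of small growing follicles, the activin and inhibin subunits Inhba and Inhbb, the activin-binding protein Fst, and Ihh, a signal from granulosa to theca cells. Amh (ENSMUSG00000035262, chr10:80805243-80807648) had 384, 275 and 228 CPM at 3 months and 4.93, 9.16 and 1.99 CPM at 25 months (log2 fold change -5.77, standard error 0.54, edgeR adjusted p = 0.00104). Inhba (ENSMUSG00000041324, chr13:16011851-16031621) had 399, 564 and 215 CPM at 3 months and 4.08, 4.08 and 16.5 CPM at 25 months (log2 fold change -5.57, standard error 0.70, edgeR adjusted p = 0.00231). Both were low in all 3 old mice, and neither group overlapped the other. Inhbb followed, with 603, 452 and 598 CPM at 3 months and 3.06, 9.00 and 26.5 CPM at 25 months (log2 fold change -5.41, standard error 0.75, edgeR adjusted p = 0.00296). Nr5a2, a nuclear receptor that granulosa and luteal cells need for ovulation, was even among the old mice at 22.2, 22.9 and 22.7 CPM, against 465, 349 and 745 at 3 months (log2 fold change -4.52, standard error 0.30, edgeR adjusted p = 0.000571).

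Fshr, the receptor for follicle-stimulating hormone, had 29.5, 31.3 and 22.3 CPM at 3 months and 0.965, 1.62 and 4.101 CPM at 25 months (log2 fold change -3.63, standard error 0.50, edgeR adjusted p = 0.00296). Cyp19a1, the aromatase that makes estradiol, had 16.7, 47.5 and 6.73 CPM at 3 months and 0.214, 2.04 and 4.86 CPM at 25 months (log2 fold change -3.31, standard error 1.01, edgeR adjusted p = 0.0476). Its 3-month levels were themselves spread widely, and its call was lost in 7 of 11 alternative settings. Esr2, the estrogen receptor of granulosa cells, fell from 177, 121 and 114 to 28.8, 16.7 and 24.96 CPM (log2 fold change -2.54, standard error 0.26, edgeR adjusted p = 0.00133). Other genes of the cell did not pass with all 6 mice. Foxl2, the transcription factor that keeps granulosa cells female, had 247, 201 and 314 CPM at 3 months and 136, 195 and 161 CPM at 25 months (log2 fold change -0.63, edgeR adjusted p = 0.0607). Inha, the inhibin alpha subunit, had 1352, 2072 and 1864 CPM at 3 months and 117, 339 and 1852 CPM at 25 months (log2 fold change -1.18, edgeR adjusted p = 0.349). Inha was low in mice 1 and 2 and at a young level in mouse 3, and without mouse 3 it passed with a log2 fold change of -2.96 (edgeR adjusted p = 0.00346). The 3 members that rose were Kitl, the ligand of Kit (log2 fold change 1.05, standard error 0.16, edgeR adjusted p = 0.00388), Nr0b1, an inhibitor of steroid gene transcription (log2 fold change 0.79, standard error 0.21, edgeR adjusted p = 0.0298), and Gatm, an enzyme of creatine synthesis (log2 fold change 1.49, standard error 0.29, edgeR adjusted p = 0.0097). Nr0b1 lost its call in 5 of 12 alternative settings. Kitl had 97.4, 78.01 and 67.0 CPM at 3 months and 155, 170.4 and 174 CPM at 25 months, and these 3 genes were named after their values were seen.

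The TGF-beta family carries signals between oocyte, granulosa and theca cells. Its share of falling genes was above that of all genes, and its share of rising genes below it. Of 38 tested, 13 fell and 4 rose (34.2% and 10.5%, against 11.4% and 15.2% of all genes), with a median log2 fold change of -0.19. Beside Gdf9, Bmp15, Amh, Inhba, Inhbb and Fst, the BMP antagonist Grem1 fell, with a log2 fold change of -5.14. So did Bmpr1b, the receptor through which granulosa cells read oocyte BMP signals, with 126, 95.8 and 77.1 CPM at 3 months and 13.6, 9.94 and 16.8 CPM at 25 months (log2 fold change -2.88, standard error 0.26, edgeR adjusted p = 0.000951). Ltbp1, which holds latent TGF-beta in the matrix, fell from 379, 343 and 477 to 48.7, 54.1 and 69.01 CPM (log2 fold change -2.80, standard error 0.20, edgeR adjusted p = 0.000644). The members that rose were Tgfbr2, Tgfbr3, Ltbp2 and Ltbp4, with log2 fold changes of 1.23, 0.47, 1.65 and 0.88. Tgfb1 itself had 48.5, 82.1 and 52.4 CPM at 3 months and 105, 57.5 and 40.1 CPM at 25 months and did not pass (edgeR adjusted p = 0.789), and Id3, a common target of BMP signals, had a log2 fold change of -0.14 (edgeR adjusted p = 0.431).

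Genes of cell division fell together, and here the list medians of the 3 old mice were alike. Of 64 mitotic cell cycle genes tested, 56 fell and 0 rose, with a median log2 fold change of -2.18, and their median in mice 1, 2 and 3 stood -1.97, -2.10 and -2.20 from the 3-month mean on a log2 scale of CPM plus 0.5. Ccnb1 (ENSMUSG00000041431, chr13:100778650-100786570), the cyclin of mitotic entry, had 45.5, 42.6 and 35.6 CPM at 3 months and 4.45, 5.23 and 4.28 CPM at 25 months (log2 fold change -3.14, standard error 0.18, edgeR adjusted p = 0.000521). Ube2c (ENSMUSG00000001403, chr2:164769898-164778822), which marks cyclins for degradation, had 62.7, 41.03 and 50.98 CPM at 3 months and 3.91, 4.71 and 4.28 CPM at 25 months (log2 fold change -3.58, standard error 0.21, edgeR adjusted p = 0.000521). Plk1, a mitotic kinase, had 30.7, 33.6 and 34.5 CPM at 3 months and 4.61, 5.28 and 4.34 CPM at 25 months (log2 fold change -2.79, standard error 0.17, edgeR adjusted p = 0.00053). In each of these the highest old mouse was far below the lowest young mouse. Uhrf1, which keeps DNA methylation through replication, fell from 77.4, 72.5 and 81.8 to 8.53, 12.5 and 10.4 CPM (log2 fold change -2.88, standard error 0.17, edgeR adjusted p = 0.000521). Mki67, the proliferation marker Ki-67, had 130.0, 79.2 and 95.9 CPM at 3 months and 33.1, 26.4 and 13.4 CPM at 25 months (log2 fold change -2.06, standard error 0.34, edgeR adjusted p = 0.005). The 8 members that did not pass included Ccnd2, the cyclin D of granulosa cells (log2 fold change 0.04), and the replication genes Pcna (-0.36) and Mcm4 (-0.29).

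The promoters of 2 of these genes are printed because mitotic genes share 2 short elements, the CCAAT box and the cell cycle homology region. Both were searched on both strands in the 250 bases before the RefSeq start (GRCm38.p6), as CCAAT and as TTTGAA, and matches are in capitals, where ATTGG and TTCAAA are the same letters on the other strand. Of 54 mitotic genes with a promoter in the table, 40 held CCAAT (74.1%, against 34.3% of 27025 genes with a promoter) and 16 held TTTGAA (29.6%, against 16.2%). The shares were 38.8% and 12.6% in genes that fell, and 35.6% and 10.9% in genes tested. CCAAT was as frequent in 78.6% of MHC class I and 70.0% of MHC class II genes, which rose, and stood in 30.8% to 40.7% in the other lists searched. TTTGAA stood in 25.0% of T and NK cell, 22.9% of interferon-stimulated and 0% to 14.8% of the other lists' genes. The Ccnb1 promoter (chr13:100786487-100786736, minus strand) holds 2 CCAAT boxes and no TTTGAA, and that of Ube2c (chr2:164769679-164769928, plus strand) holds 6 CCAAT boxes, 2 of which overlap, and 1 TTTGAA. A match is a description of the sequence only.
Ccnb1: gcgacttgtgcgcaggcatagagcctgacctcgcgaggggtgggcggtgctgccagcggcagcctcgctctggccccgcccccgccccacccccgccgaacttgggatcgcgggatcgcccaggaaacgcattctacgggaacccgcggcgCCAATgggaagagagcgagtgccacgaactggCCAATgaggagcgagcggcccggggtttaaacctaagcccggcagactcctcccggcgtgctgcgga
Ube2c: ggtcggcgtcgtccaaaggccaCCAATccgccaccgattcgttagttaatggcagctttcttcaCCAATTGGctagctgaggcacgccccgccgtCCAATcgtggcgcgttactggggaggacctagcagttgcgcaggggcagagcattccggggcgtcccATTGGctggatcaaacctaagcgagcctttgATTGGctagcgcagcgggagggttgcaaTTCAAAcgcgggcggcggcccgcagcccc

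Steroid synthesis divided the old mice. With all 6 mice, 3 of 36 genes of steroid and cholesterol synthesis fell and 1 rose (8.33% and 2.78%, against 11.4% and 15.2% of all genes). Without mouse 3 of 25 months, 25 fell, and the median log2 fold change moved from -0.82 to -1.71. When mouse 1 or 3 of 3 months or mouse 2 of 25 months was left out, 1 gene fell. In mouse 3 of 25 months the list's median stood 0.05 from the 3-month mean, against -1.86 in mouse 1 and -1.27 in mouse 2. Mouse 3 had the highest level of the old mice in 34 of the 36 genes. The list's medians in the 18-month mice were also spread, at -0.75, -1.13 and 0.91. Those of the 12-month mice were 1.47, -0.13 and -0.14, and of the 9-month mice -0.16, 1.54 and 1.35. The 6-month mice lay closer together, at -0.095, 0.060 and -0.095. Cyp11a1 (ENSMUSG00000032323, chr9:58006411-58027023), the enzyme that turns cholesterol into pregnenolone, had 5898, 5291 and 9124 CPM at 3 months and 366, 2229 and 6572 CPM at 25 months (log2 fold change -1.14, standard error 0.84, edgeR adjusted p = 0.355). Leaving out mouse 3 of 25 months, its log2 fold change was -2.39 (edgeR adjusted p = 0.0387). Cyp17a1 (ENSMUSG00000003555, chr19:46667165-46673172), the enzyme of androgen synthesis in theca cells, had 234, 78.9 and 27.4 CPM at 3 months and 4.34, 4.03 and 750.2 CPM at 25 months (log2 fold change 1.17, standard error 1.75, edgeR adjusted p = 0.653). Mouse 3 thus had more Cyp17a1 than any young mouse and the other old mice less, and without it the log2 fold change was -4.76 (edgeR adjusted p = 0.00814).

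Genes of cholesterol uptake and synthesis also differed between the old mice. Scarb1, the receptor for HDL cholesterol, had 1648, 769 and 2175 CPM at 3 months and 99.7, 157 and 907 CPM at 25 months (log2 fold change -1.97, edgeR adjusted p = 0.124). With mouse 3 of 25 months left out, its log2 fold change was -3.58 (edgeR adjusted p = 0.00178). Sqle and Fdps, enzymes of cholesterol synthesis, did not pass with all 6 mice, with log2 fold changes of -1.37 (edgeR adjusted p = 0.182) and -1.20 (edgeR adjusted p = 0.29). Without mouse 3 both passed, with log2 fold changes of -2.48 and -2.71 (edgeR adjusted p = 0.00851 and 0.00438). Star, which carries cholesterol into mitochondria, had 1436, 369.5 and 1585 CPM at 3 months and 253, 437 and 811 CPM at 25 months (log2 fold change -1.17, edgeR adjusted p = 0.19), and it did not pass without mouse 3 either. What passed with all 6 mice was Hsd17b1, the estradiol-forming enzyme of granulosa cells, with 249.8, 247 and 181 CPM at 3 months and 16.5, 22.03 and 44.1 CPM at 25 months (log2 fold change -3.03, standard error 0.37, edgeR adjusted p = 0.00218), Cyp19a1, Hsd17b7, and upward Por, the electron donor of the P450 enzymes, with 96.3, 135 and 139.6 CPM at 3 months and 170.4, 233 and 182 CPM at 25 months (log2 fold change 0.67, standard error 0.19, edgeR adjusted p = 0.0381). Por lost its call in 4 of 12 alternative settings. Hsd17b7 had 1853, 83.2 and 468 CPM at 3 months and 9.49, 15.02 and 88.3 CPM at 25 months, with overlap between the ages (log2 fold change -4.40, standard error 1.30, edgeR adjusted p = 0.0421), and it lost its call in 6 of 12 alternative settings.

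Luteal genes also differed between the old mice, but here mouse 3 was below the young mice too. Their median stood -3.64, -1.61 and -0.53 from the 3-month mean in mice 1, 2 and 3 of 25 months, and -0.33 in the lowest young mouse. Of 16 tested, 5 fell and 1 rose, and 10 fell without mouse 3 of 25 months, 2 without mouse 1 of 3 months and 3 without mouse 2 of 25 months. Ptgfr, the prostaglandin receptor through which the corpus luteum regresses, had 534, 247 and 178 CPM at 3 months and 2.896, 5.81 and 35.6 CPM at 25 months (log2 fold change -4.43, standard error 0.97, edgeR adjusted p = 0.0142). Cited4, a coactivator on the luteal list, had 65.5, 67.1 and 77.1 CPM at 3 months and 5.42, 12.2 and 8.79 CPM at 25 months (log2 fold change -2.98, standard error 0.28, edgeR adjusted p = 0.0011). Akr1c18, which inactivates progesterone, fell from 119, 165 and 8.11 to 2.198, 3.56 and 7.91 CPM (log2 fold change -4.42, standard error 1.04, edgeR adjusted p = 0.0188), with the lowest young mouse close to the highest old one, and lost its call in 6 of 12 alternative settings. Lhcgr, the receptor for luteinizing hormone on theca, luteal and late granulosa cells, had 515, 133 and 629 CPM at 3 months and 28.3, 169.9 and 818 CPM at 25 months (log2 fold change -0.32, edgeR adjusted p = 0.848). Of 14 genes of theca and interstitial cells tested, 5 fell and 2 rose (35.7% and 14.3%, against 11.4% and 15.2% of all genes). The number that rose was 1 when mouse 1 or 3 of 3 months or mouse 1 or 2 of 25 months was left out. Ptch1 and Gli1, targets of hedgehog signals from granulosa cells, had log2 fold changes of -0.96 and -0.85, and Cxcl12, a stromal chemokine, rose (log2 fold change 1.60, standard error 0.25, edgeR adjusted p = 0.00433). Insl3, the theca hormone, had 4.21, 2.82 and 4.42 CPM at 3 months and 5.09, 4.97 and 5.98 CPM at 25 months and did not pass (edgeR adjusted p = 0.237). In the annotation 64.8% of its exon bases are shared with Jak3. Of 11 genes of cumulus expansion and ovulation tested, 2 fell (18.2%, against 11.4% of all genes) and none rose. Those that fell were Rgcc (log2 fold change -2.12, standard error 0.22, edgeR adjusted p = 0.00133) and Runx2 (log2 fold change -2.59, standard error 0.40, edgeR adjusted p = 0.00412). Without mouse 3 of 25 months 4 fell.

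The plot of list medians by mouse shows these differences. In 34 of 36 steroid genes and 14 of 16 surface epithelium genes mouse 3 was the highest of the old mice, while it was the highest in no gene of the macrophage, T cell or MHC lists.

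**Figure D3:**
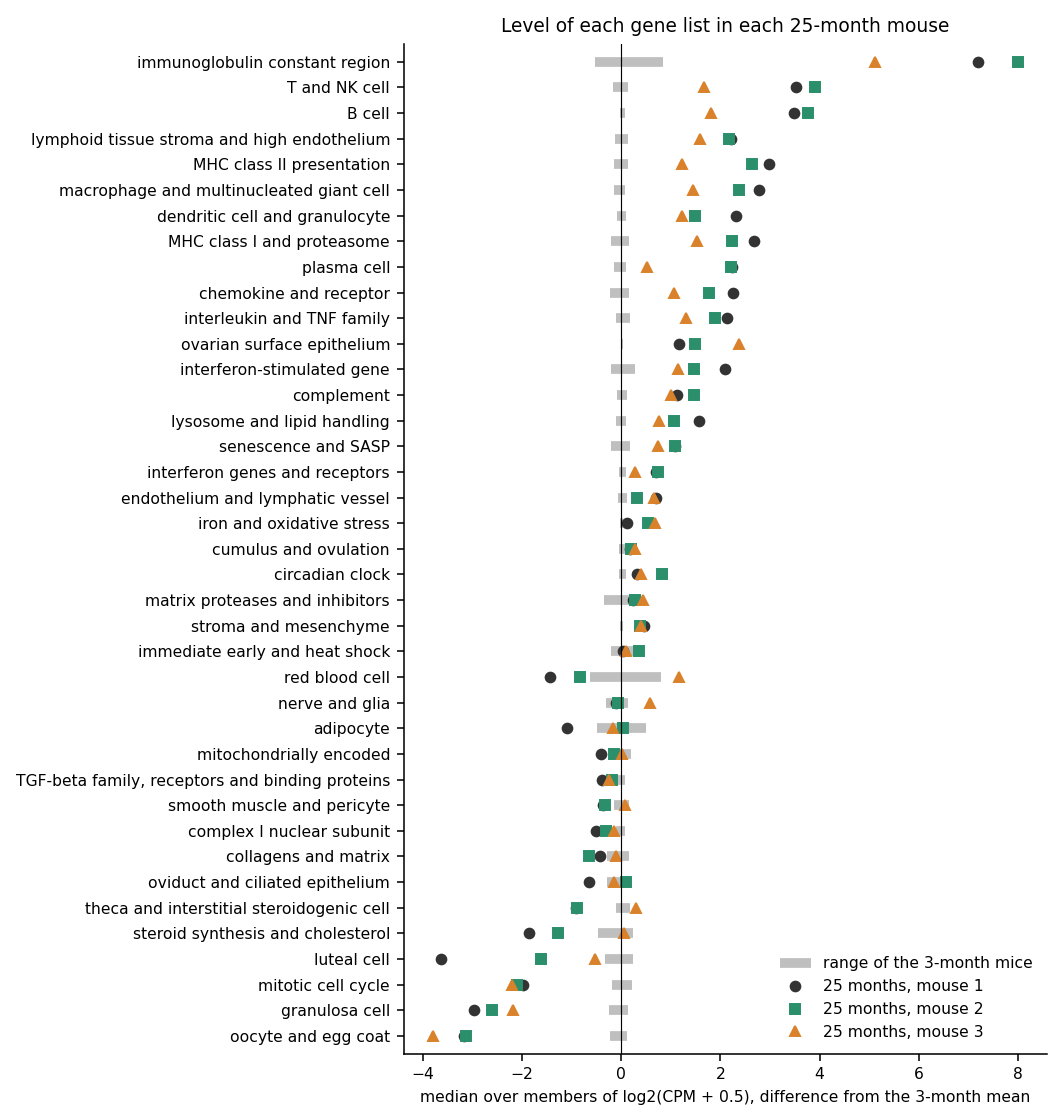
For each gene list, points give the median over its tested members of log2(CPM + 0.5) in each 25-month mouse, as the difference from the 3-month mean, and grey bars the range of the 3-month mice. In the steroid list mouse 3 lies at 0.05 and mouse 1 at -1.86, in the mitotic list all 3 mice lie between -2.20 and -1.97, and in the T and NK cell list they lie at 3.53, 3.90 and 1.66.

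Of 47 matrix genes tested, 6 rose and 9 fell (12.8% and 19.1%, against 15.2% and 11.4% of all genes), with a median log2 fold change of -0.32. The small proteoglycans that bind collagen fibres were divided. Of these Dcn, Lum and Bgn rose, Fmod fell and Ogn did not pass. Dcn (ENSMUSG00000019929, chr10:97479609-97518143) had 272, 326 and 356 CPM at 3 months and 1531, 1885 and 1671 CPM at 25 months (log2 fold change 2.42, standard error 0.18, edgeR adjusted p = 0.000663) and Lum had 114, 121 and 107 CPM at 3 months and 363, 357 and 422 CPM at 25 months (log2 fold change 1.75, standard error 0.14, edgeR adjusted p = 0.00069). Both were even among the old mice. Bgn had a log2 fold change of 1.05 (edgeR adjusted p = 0.0105), Fmod one of -0.87 (edgeR adjusted p = 0.026) and Ogn one of -0.24 (edgeR adjusted p = 0.554). Fmod lost its call in 5 of 12 alternative settings. Col6a5, a chain of collagen VI, also rose (log2 fold change 2.57, standard error 0.45, edgeR adjusted p = 0.00653). Vcan, the proteoglycan of follicular fluid and the cumulus matrix, fell from 94.96, 101 and 122 to 12.01, 9.00 and 17.7 CPM (log2 fold change -3.03, standard error 0.26, edgeR adjusted p = 0.000874). Mfap5, a microfibril protein, fell as well (log2 fold change -1.76, standard error 0.23, edgeR adjusted p = 0.00247). The fibrillar collagens did not pass with all 6 mice. Col1a1 had 302, 664 and 571 CPM at 3 months and 327, 217 and 480.4 CPM at 25 months (log2 fold change -0.58, edgeR adjusted p = 0.286), and Col3a1 had a log2 fold change of -0.59 (edgeR adjusted p = 0.161). Without mouse 3 of 25 months Col1a2 (log2 fold change -0.86, edgeR adjusted p = 0.0388), Col3a1 (-0.85, edgeR adjusted p = 0.0412) and Col5a2 (-0.76, edgeR adjusted p = 0.0377) fell. The number of matrix genes that fell was 3 when mouse 2 or 3 of 3 months or mouse 2 of 25 months was left out, 5 without mouse 1 of 3 months and 20 without mouse 3 of 25 months. Without mouse 3 of 3 months, 3 rose. The 20 members of the stroma list gave 9 that rose and 2 that fell, and Ly6a, a surface antigen of mesenchymal progenitors and immune cells, rose (log2 fold change 2.95, standard error 0.25, edgeR adjusted p = 0.000823).

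Of 27 matrix proteases and inhibitors tested, 9 rose and 3 fell (33.3% and 11.1%, against 15.2% and 11.4% of all genes). Without mouse 3 of 25 months 6 fell. Mmp12, the macrophage elastase, had 5.28, 19.5 and 3.34 CPM at 3 months and 916, 449 and 183 CPM at 25 months (log2 fold change 5.79, standard error 0.89, edgeR adjusted p = 0.0042). Ctss, the lysosomal cathepsin S that also trims the MHC class II invariant chain, had 64.9, 71.1 and 58.3 CPM at 3 months and 2404, 911 and 483 CPM at 25 months (log2 fold change 4.29, standard error 0.58, edgeR adjusted p = 0.00284). In both genes mouse 1 was highest and mouse 3 lowest of the old mice. Those that fell were Adamts2, Adamts5 (log2 fold change -2.06, standard error 0.29, edgeR adjusted p = 0.00298) and Serpine2, a protease inhibitor of granulosa cells (log2 fold change -2.73, standard error 0.33, edgeR adjusted p = 0.00214).

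Of the gene lists, that of immunoglobulin constant regions had the highest median rise. Immunoglobulin genes are those which B cells and plasma cells rearrange and express as antibody. All 11 constant-region genes tested rose, with a median log2 fold change of 8.07, and so did 83 of 85 variable-segment genes tested. Ighm (ENSMUSG00000076617, chr12:113418558-113422730), the heavy chain of IgM, had 7.83, 4.098 and 7.03 CPM at 3 months and 14288, 16149 and 3862 CPM at 25 months (log2 fold change 10.82, standard error 0.76, edgeR adjusted p = 0.000613). Igkc, the kappa light chain, had 20.99, 3.19 and 4.88 CPM at 3 months and 8778, 7893 and 2265 CPM at 25 months (log2 fold change 9.35, standard error 1.06, edgeR adjusted p = 0.00171). Summed over the constant regions, 67.4, 17.1 and 23.7 CPM at 3 months stood against 25914, 27002 and 6912 CPM at 25 months. At 18 months the sums were 6116, 1229 and 517 CPM. Jchain, which joins IgM and IgA into polymers, had 5.77, 1.22 and 2.62 CPM at 3 months and 1509, 1058 and 441 CPM at 25 months (log2 fold change 8.28, standard error 0.77, edgeR adjusted p = 0.000998). Mzb1, a chaperone of antibody secretion, had 1.17, 0.532 and 0.821 CPM at 3 months and 47.8, 88.8 and 7.32 CPM at 25 months (log2 fold change 5.82, standard error 0.93, edgeR adjusted p = 0.00459), with 57.2% of its exon bases shared with Spata24.

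The class of antibody also differed between the ages. IgM took 84.4%, 86.8% and 84.7% of the heavy-chain constant counts in the old mice, and 17.4%, 31.2% and 38.2% in the young. IgA took 1.21%, 0.804% and 1.86% in the old mice, and 43.4%, 40.9% and 43.7% in the young, where the shares rest on 919, 247 and 359 counts. Igha itself still rose, with 19.5, 5.37 and 8.06 CPM at 3 months and 205, 149.5 and 84.7 CPM at 25 months (log2 fold change 3.74, standard error 0.54, edgeR adjusted p = 0.00334). The 18-month mice had 530.5, 312 and 244 CPM. Single younger mice also had more Igha counts than any mouse of 25 months (3816, 2858 and 1445). These were mouse 2 of 6 months (4348), mice 2 and 3 of 9 months (4737 and 3982) and mouse 3 of 12 months (7279). The shares of the 18-month mice were spread, with IgM at 71.8%, 24.2% and 4.96%. The groups of 3 and 25 months did not overlap in either share, and an exact permutation test of 3 against 3 mice cannot go below p = 0.1.

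The leading variable segments differed between the 3 old mice. Among kappa segments, Igkv4-55 took 37.9% of the counts in mouse 1, Igkv3-2 took 56.4% in mouse 2 and Igkv8-24 took 16.8% in mouse 3. Among heavy-chain segments, Ighv1-53 led in mouse 1 with 45.1%, Ighv6-6 in mouse 2 with 15.1% and Ighv3-6 in mouse 3 with 32.5%. Some of these also led in younger mice, Igkv3-2 in mouse 1 of 18 months with 40.7% and in mice 1 and 3 of 12 months, and Ighv1-53 in mouse 1 of 18 months with 23.9% and in mouse 1 of 12 months. These shares rest on 93326, 72466 and 17075 kappa counts and on 49938, 31642 and 10787 heavy-chain counts. Segments are near copies of each other, so reads may be assigned to a relative, and without sequence of the joined region the number of clones is not known. In the T cell receptor beta chain the leading segment took 17.1%, 16.6% and 25.0% of 315, 392 and 88 counts.

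**Figure D4:**
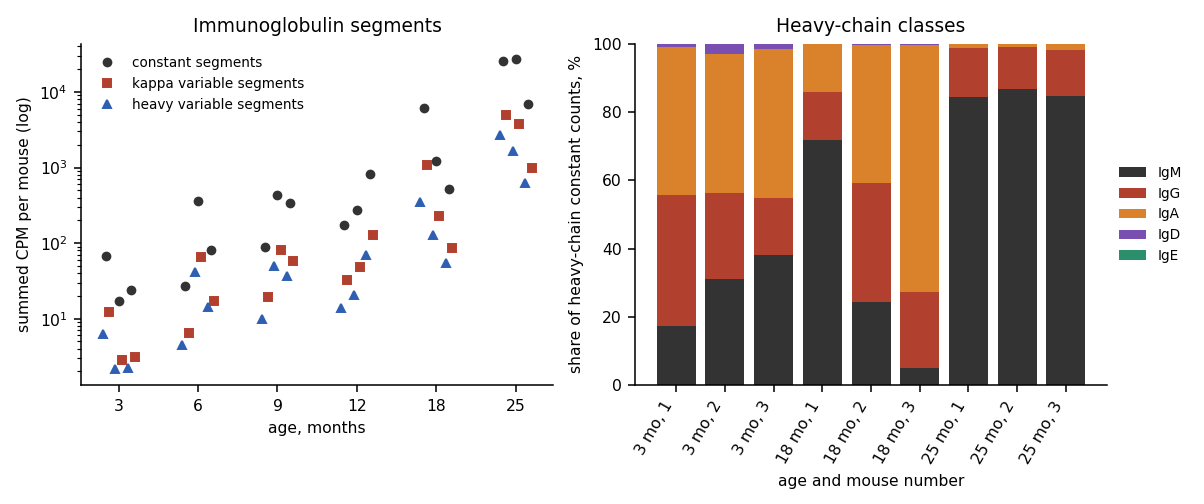
Left, summed CPM of immunoglobulin constant, kappa variable and heavy variable segments in each mouse at each age, on a log axis; right, the share of each antibody class in the heavy-chain constant counts of each mouse at 3, 18 and 25 months. The 3 old mice have 6912 to 27002 CPM of constant regions, all above the young mice, and IgM takes 84.4% to 86.8% of their heavy-chain counts.

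B cell genes outside the antibody loci rose as well. Of 20 tested, 18 rose and 0 fell, with a median log2 fold change of 4.08. Cd79a, a signalling chain of the B cell receptor, had 0.9295, 1.65 and 1.69 CPM at 3 months and 34.4, 43.3 and 9.96 CPM at 25 months (log2 fold change 4.36, standard error 0.58, edgeR adjusted p = 0.00276). Pou2af1 (ENSMUSG00000032053, chr9:51213708-51240080), a B cell coactivator, was among the 10 largest rises of named genes, with 0.245, 0.0532 and 0.103 CPM at 3 months and 63.4, 62.6 and 14.4 CPM at 25 months (log2 fold change 8.37, standard error 0.81, edgeR adjusted p = 0.00119). Blk, a B cell kinase, and Tnfrsf13c, the BAFF receptor, rose with log2 fold changes of 4.61 and 5.97. Mouse 3 was the lowest of the old mice in all of these. Ms4a1, the CD20 antigen of mature B cells, was lower and overlapped between the ages, with 1.66, 1.12 and 0.205 CPM at 3 months and 7.29, 19.9 and 1.58 CPM at 25 months (log2 fold change 3.26, standard error 0.98, edgeR adjusted p = 0.0451), and lost its call in 5 of 11 alternative settings. Of 16 plasma cell genes tested, 10 rose. Genes of the secretory pathway that many cells use, Fkbp11, Txndc5, Creld2 and Edem1, did not pass. Sdc1, a plasma cell antigen that epithelial and granulosa cells also carry, fell (log2 fold change -1.79, standard error 0.26, edgeR adjusted p = 0.00334).

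T cell and NK cell genes rose in 34 of 39 members tested and fell in none, with a median log2 fold change of 4.09. Cd3e, a chain of the T cell receptor complex, had 1.17, 0.585 and 0.7701 CPM at 3 months and 34.1, 33.1 and 8.14 CPM at 25 months (log2 fold change 4.89, standard error 0.62, edgeR adjusted p = 0.00235). Cd4, the co-receptor of helper cells, had 3.38, 2.29 and 1.69 CPM at 3 months and 55.6, 73.3 and 39.8 CPM at 25 months (log2 fold change 4.52, standard error 0.34, edgeR adjusted p = 0.000674). Cd8a, that of cytotoxic cells, had 1.08, 0.692 and 0.154 CPM at 3 months and 31.6, 36.8 and 4.75 CPM at 25 months (log2 fold change 5.24, standard error 0.91, edgeR adjusted p = 0.00609). Mouse 3 was the lowest of the old mice in all 3 genes. Foxp3, which defines regulatory T cells, had 0.245, 0.106 and 0.719 CPM at 3 months and 11.4, 13.8 and 1.52 CPM at 25 months (log2 fold change 4.62, standard error 0.95, edgeR adjusted p = 0.0116), with 31.5% of its exon bases shared with other genes. Trac and Trbc2, the constant regions of the T cell receptor, rose by 4.09 and 4.42 on the log2 scale, and Zap70, the kinase below it, by 3.32. Gzmb, a granzyme of activated killer cells, had 0.832, 1.06 and 0.205 CPM at 3 months and 1.93, 6.85 and 1.76 CPM at 25 months and did not pass (edgeR adjusted p = 0.0555), nor did Gzma, Klrb1c, Pdcd1 or Tcf7.

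Macrophage genes rose in 32 of 35 members tested and fell in none, with a median log2 fold change of 2.33. Gpnmb (ENSMUSG00000029816, chr6:49036546-49070929), a glycoprotein of lipid-laden macrophages, had 15.2, 44.4 and 46.4 CPM at 3 months and 3907, 1399.7 and 617 CPM at 25 months (log2 fold change 5.81, standard error 0.82, edgeR adjusted p = 0.00318). Atp6v0d2, a proton pump subunit needed for macrophage and osteoclast fusion, had 6.996, 11.4 and 8.83 CPM at 3 months and 404, 165 and 83.1 CPM at 25 months (log2 fold change 4.59, standard error 0.60, edgeR adjusted p = 0.00251). Acp5, the tartrate-resistant acid phosphatase, had 7.44, 7.13 and 6.98 CPM at 3 months and 176, 109 and 55.7 CPM at 25 months (log2 fold change 3.99, standard error 0.41, edgeR adjusted p = 0.00133). In these genes mouse 1 was highest and mouse 3 lowest, and in Gpnmb mouse 3 was below the 18-month mice (1177, 1754 and 1028 CPM). Lyz2, macrophage lysozyme, rose from 159, 159 and 251 to 4038, 1869 and 841 CPM (log2 fold change 3.57, standard error 0.56, edgeR adjusted p = 0.00447). Csf1r, the receptor for macrophage growth factor, had 43.3, 47.9 and 53.7 CPM at 3 months and 234, 139 and 103 CPM at 25 months (log2 fold change 1.72, standard error 0.29, edgeR adjusted p = 0.00535), and Adgre1, the F4/80 antigen, had 20.9, 17.3 and 16.8 CPM at 3 months and 73.4, 44.4 and 26.9 CPM at 25 months (log2 fold change 1.40, standard error 0.34, edgeR adjusted p = 0.0206). Adgre1 lost its call in 4 of 12 alternative settings. Mouse 1 was the highest old mouse in 28 of the 35 genes. Cd163, Marco and Folr2 did not pass.

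Mast cell genes had another order among the old mice. Fcer1a (ENSMUSG00000005339, chr1:173221284-173227214), the alpha chain of the IgE receptor, had no count in the 3 young mice and 1.72, 15.2 and 18.6 CPM in the old, at least 77.1-fold higher against 3 counts in each young library (edgeR adjusted p = 0.00891). Cma1, a mast cell chymase, had 1.08, 1.22 and 1.33 CPM at 3 months and 27.3, 154 and 119 CPM at 25 months (log2 fold change 6.37, standard error 0.69, edgeR adjusted p = 0.00155). Tpsb2, a mast cell tryptase, had 1.66, 1.12 and 2.52 CPM at 3 months and 36.8, 151 and 132 CPM at 25 months (log2 fold change 5.92, standard error 0.62, edgeR adjusted p = 0.00136), and Cpa3, the mast cell carboxypeptidase, had 0.832, 1.65 and 2.26 CPM at 3 months and 23.4, 94.97 and 66.96 CPM at 25 months (log2 fold change 5.29, standard error 0.61, edgeR adjusted p = 0.00178). In all 4 genes mouse 1, the highest in macrophage genes, was the lowest of the old mice, and 2 of the 18-month mice were above it. The receptors Mrgprb1, Mrgprb2 and Mrgprx2, of which Mrgprb2 triggers mast cells, were among the 10 largest rises, with 2.896, 14.6 and 10.1, 1.501, 8.69 and 3.81 and 2.14, 16.2 and 4.75 CPM in the old mice. They belong to a family of near copies. Prg2, the major basic protein of eosinophils, rose (log2 fold change 6.58, standard error 0.88, edgeR adjusted p = 0.00272), while Cxcr2, Ly6g, Mpo and Epx, of neutrophils and eosinophils, were too low to be tested. Altogether 12 of 17 dendritic cell and granulocyte genes tested rose and 1, Bst2, fell (log2 fold change -1.11, standard error 0.17, edgeR adjusted p = 0.00396).

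Genes of antigen presentation rose. Of the MHC class II list, 13 of 13 genes rose, with a median log2 fold change of 2.53, and of MHC class I and its proteasome, 15 of 16. H2-Aa, a class II chain, had 132, 134 and 98.7 CPM at 3 months and 951, 629 and 261 CPM at 25 months (log2 fold change 2.34, standard error 0.43, edgeR adjusted p = 0.00748), and Cd74, the invariant chain, had 275, 310.0 and 226 CPM at 3 months and 2066, 1333 and 564 CPM at 25 months (log2 fold change 2.29, standard error 0.43, edgeR adjusted p = 0.0082). Ciita, the master regulator of class II genes, had 6.56, 7.397 and 9.55 CPM at 3 months and 68.96, 50.8 and 22.2 CPM at 25 months (log2 fold change 2.60, standard error 0.40, edgeR adjusted p = 0.00421). B2m, the light chain of class I, had 402, 294 and 248 CPM at 3 months and 2191, 1453 and 918 CPM at 25 months (log2 fold change 2.28, standard error 0.34, edgeR adjusted p = 0.00388). The old mice ranked 1, 2, 3 in all 4 genes. The immunoproteasome subunits Psmb8 and Psmb9 rose with log2 fold changes of 2.60 and 2.55. H2-M2, a non-classical class I gene, was among the 10 largest rises (log2 fold change 6.69, standard error 0.69, edgeR adjusted p = 0.00133), and H2-Q6 rose by 3.32 on the log2 scale. Reads of the H2 genes can be split among close relatives.

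Complement genes rose in 12 of 23 members tested and fell in 1, with a median log2 fold change of 1.48. C3 (ENSMUSG00000024164, chr17:57203970-57228136), the central component, had 76.1, 31.7 and 61.7 CPM at 3 months and 2467, 2388 and 744 CPM at 25 months (log2 fold change 5.05, standard error 0.57, edgeR adjusted p = 0.00171). C4b, of the classical pathway, had 37.9, 27.3 and 19.7 CPM at 3 months and 1173, 1053 and 348 CPM at 25 months (log2 fold change 4.93, standard error 0.52, edgeR adjusted p = 0.00138), and its near copy C4a did not pass. C1qa, C1qb and C1qc, the recognition subunits made by macrophages, had log2 fold changes of 1.99, 1.98 and 2.21. Serping1, the C1 inhibitor, rose from 143, 148 and 129.7 to 568, 614 and 440.0 CPM (log2 fold change 1.95, standard error 0.16, edgeR adjusted p = 0.000829). Cfb of the alternative pathway did not pass.

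Interferon-stimulated genes rose in 40 of 48 members tested, and 1, Bst2, fell. The median log2 fold change was 1.67. Without mouse 3 of 3 months 26 rose. Gbp2 (ENSMUSG00000028270, chr3:142620602-142638008), a guanylate-binding protein against intracellular microbes, had 43.1, 34.4 and 31.9 CPM at 3 months and 217, 221 and 116 CPM at 25 months (log2 fold change 2.34, standard error 0.27, edgeR adjusted p = 0.00171). Cxcl10, a chemokine that attracts T cells, had 2.35, 2.45 and 2.87 CPM at 3 months and 25.4, 31.3 and 10.2 CPM at 25 months (log2 fold change 3.13, standard error 0.42, edgeR adjusted p = 0.00278), and Cxcl9, its relative, had 2.74, 0.958 and 0.873 CPM at 3 months and 33.2, 25.8 and 8.49 CPM at 25 months (log2 fold change 3.88, standard error 0.65, edgeR adjusted p = 0.00528). Each old mouse was above each young mouse in all 3 genes. Rsad2, the antiviral protein viperin, rose from 5.87, 3.62 and 3.696 to 27.03, 17.1 and 21.9 CPM (log2 fold change 2.33, standard error 0.29, edgeR adjusted p = 0.00216) and was at 21.5, 31.5 and 31.2 CPM in the 18-month mice. Irf1, a transcription factor of the response, rose (log2 fold change 1.59, standard error 0.19, edgeR adjusted p = 0.00184). Of the receptors, Ifngr1 for type II (log2 fold change 1.42, standard error 0.13, edgeR adjusted p = 0.000951), Ifnar2 for type I (log2 fold change 0.85, standard error 0.14, edgeR adjusted p = 0.00515) and Ifnlr1 for type III interferon (log2 fold change 2.15, standard error 0.24, edgeR adjusted p = 0.00167) rose, while Ifnar1 and Ifngr2 did not pass. The interferon genes Ifng and Ifnb1 were too low to be tested.

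The promoters of 3 of these genes are printed with the interferon-stimulated response element, searched as GAAA, any 2 bases and GAAA on both strands in the 250 bases before the RefSeq start (GRCm38.p6) and shown in capitals. Of 35 interferon-stimulated genes with a promoter in the table, 20 held it (57.1%), against 3.05% of 27025 genes with a promoter. Over all genes, it stood in 107 of 1874 promoters of genes that rose (5.71%), in 39 of 1498 of genes that fell (2.60%) and in 348 of 12500 of genes tested (2.78%). The windows are chr3:142620413-142620662 on the plus strand for Gbp2, chr11:48992247-48992496 on the minus strand for Tgtp1, a T cell-specific GTPase with a near copy in Tgtp2, and chr5:92348890-92349139 on the minus strand for Cxcl10. The 250 bases before Irf1 held no match of these letters.
Gbp2: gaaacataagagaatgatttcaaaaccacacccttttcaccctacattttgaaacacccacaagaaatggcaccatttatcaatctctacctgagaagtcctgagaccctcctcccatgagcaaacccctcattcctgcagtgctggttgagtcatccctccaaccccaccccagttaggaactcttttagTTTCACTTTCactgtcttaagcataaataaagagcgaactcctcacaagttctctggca
Tgtp1: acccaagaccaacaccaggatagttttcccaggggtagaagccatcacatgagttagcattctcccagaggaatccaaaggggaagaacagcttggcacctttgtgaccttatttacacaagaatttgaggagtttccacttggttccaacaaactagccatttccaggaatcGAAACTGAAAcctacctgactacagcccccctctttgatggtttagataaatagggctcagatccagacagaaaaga
Cxcl10: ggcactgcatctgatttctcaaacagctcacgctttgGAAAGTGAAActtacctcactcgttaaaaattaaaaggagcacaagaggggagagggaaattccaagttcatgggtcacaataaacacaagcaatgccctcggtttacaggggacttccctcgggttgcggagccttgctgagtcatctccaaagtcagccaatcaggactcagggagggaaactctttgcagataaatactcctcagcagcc

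Of the interleukin and TNF family 29 of 38 genes tested rose, and of the chemokines and their receptors 21 of 34, and none fell. The number of chemokine genes that rose was 14 of 37 tested without mouse 1 of 3 months and 14 of 36 without mouse 3 of 3 months. Il33, an alarmin of stromal and endothelial cells, was even among the old mice, with 6.46, 5.43 and 4.57 CPM at 3 months and 48.7, 56.6 and 46.7 CPM at 25 months (log2 fold change 3.21, standard error 0.18, edgeR adjusted p = 0.000521). Ltb, the lymphotoxin that organises lymphoid tissue, had 1.96, 2.02 and 1.59 CPM at 3 months and 41.3, 38.1 and 13.9 CPM at 25 months (log2 fold change 4.07, standard error 0.44, edgeR adjusted p = 0.00153). Ccl5, a chemokine of T cells, had 1.71, 1.596 and 1.49 CPM at 3 months and 50.4, 66.5 and 12.5 CPM at 25 months (log2 fold change 4.75, standard error 0.61, edgeR adjusted p = 0.00247). Ccl8, which attracts monocytes, had 2.49, 1.22 and 0.667 CPM at 3 months and 20.2, 49.6 and 10.8 CPM at 25 months (log2 fold change 4.19, standard error 0.70, edgeR adjusted p = 0.00526). Receptors rose too, with Cxcr4 (log2 fold change 2.62, standard error 0.21, edgeR adjusted p = 0.000801) and Cxcr6 (log2 fold change 4.49, standard error 0.56, edgeR adjusted p = 0.00227) as examples. The monocyte and neutrophil chemokines Ccl2, Cxcl1 and Cxcl2 did not pass, with log2 fold changes of 0.50, 0.30 and 0.51.

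Of 14 genes of lymphoid tissue stroma and high endothelium tested, 11 rose, and 7 without mouse 1 or without mouse 3 of 3 months. Cxcl13, which gathers B cells into follicles, had 0.147, 0.213 and 0.103 CPM at 3 months and 2.36, 8.79 and 0.879 CPM at 25 months (log2 fold change 4.65, standard error 0.96, edgeR adjusted p = 0.0115). Vcam1 and Icam1, adhesion molecules for lymphocytes, rose (log2 fold change 1.98, standard error 0.21, edgeR adjusted p = 0.00138, and log2 fold change 2.60, standard error 0.23, edgeR adjusted p = 0.000874). The genes that mark lymph node vessels stayed low: Glycam1 had 0, 0 and 0 CPM at 3 months and 1.66, 2.15 and 0 CPM at 25 months, and Madcam1 had 0.391, 0.745 and 0.0513 CPM at 3 months and 0.697, 0.471 and 0.0586 CPM at 25 months, both too low to be tested. No level is given for Ccl19, which has near copies in the annotation.

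**Figure D5:**
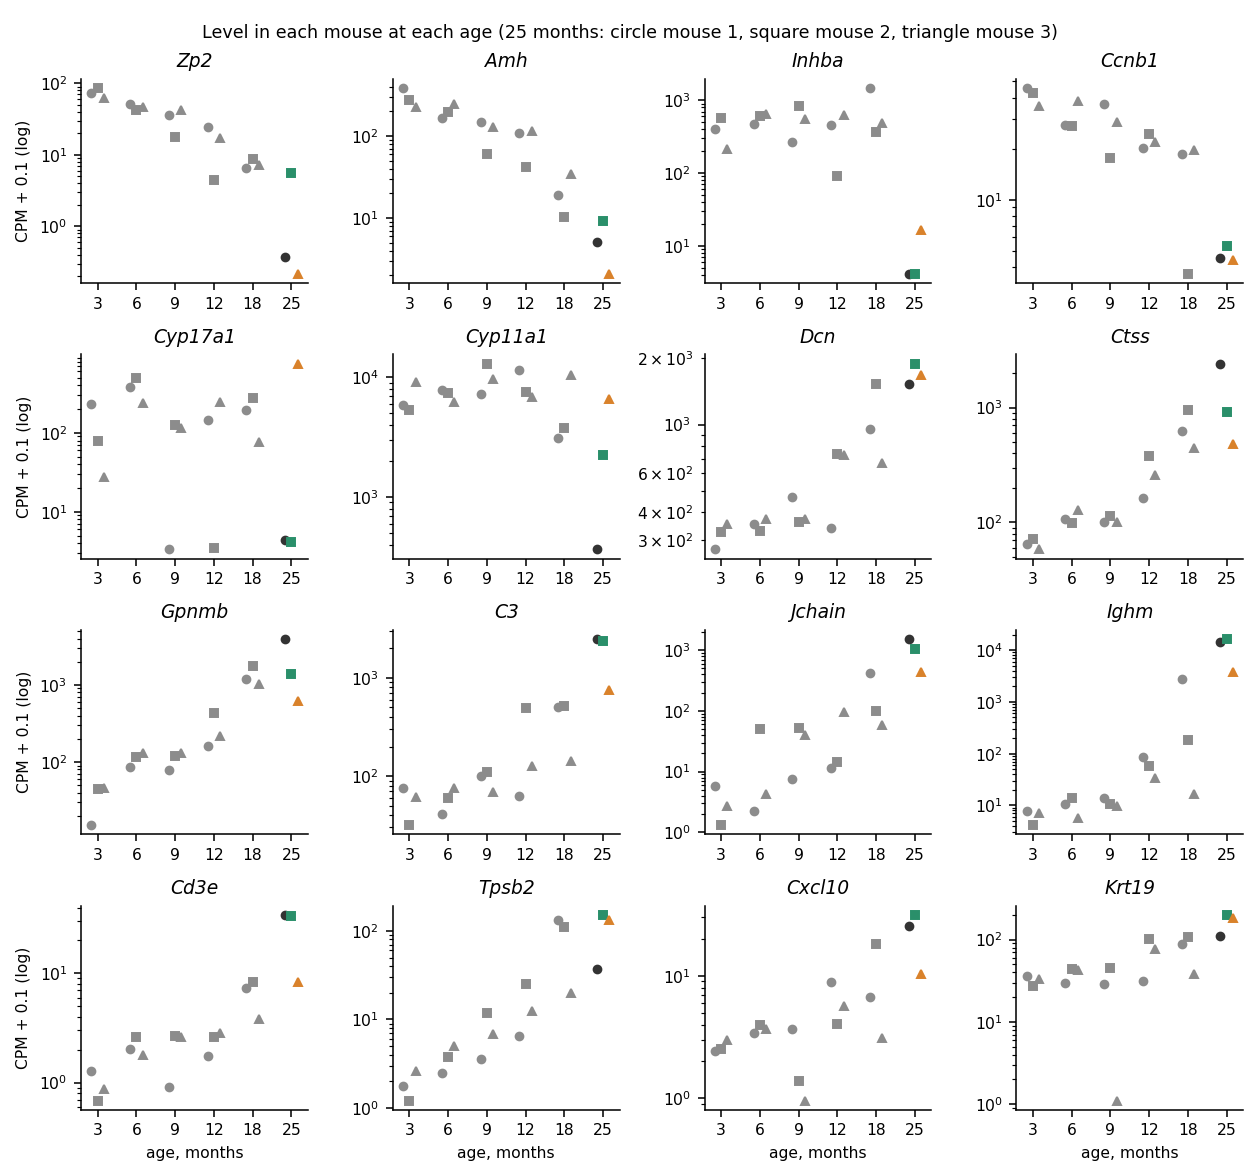
CPM plus 0.1 on a log axis for 16 genes in each of the 18 natural aging mice, by age in months; the mice of 25 months are coloured, with a circle for mouse 1, a square for mouse 2 and a triangle for mouse 3. In Ighm the old mice lie between 3862 and 16149 CPM and the young at or below 7.83, while in Cyp17a1 mouse 3 lies at 750.2 CPM and the other old mice at or below 4.34.

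Genes of senescence and its secretory phenotype rose in 22 and fell in 2 of 47 members tested, with a median log2 fold change of 1.05, and 7 fell without mouse 3 of 25 months. The cyclin-dependent kinase inhibitors that mark senescent cells did not pass. Cdkn1a, which encodes p21, had 12.96, 53.2 and 14.5 CPM at 3 months and 27.3, 22.3 and 36.7 CPM at 25 months (log2 fold change 0.11, edgeR adjusted p = 0.903), with mouse 2 of 3 months the highest of all. Cdkn2a, which encodes p16, had 0.538, 2.29 and 0.513 CPM at 3 months and 1.72, 1.94 and 2.17 CPM at 25 months (log2 fold change 0.81, edgeR adjusted p = 0.367). Cdkn2b, their relative p15, fell (log2 fold change -2.46, standard error 0.62, edgeR adjusted p = 0.0246). Lmnb1, the nuclear lamin whose loss is used as a mark of senescence and which dividing cells also make, fell from 112, 88.9 and 114 to 49.1, 49.97 and 41.1 CPM (log2 fold change -1.16, standard error 0.14, edgeR adjusted p = 0.00222). Hmgb1 did not pass (log2 fold change -0.34, edgeR adjusted p = 0.177).

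Of the secreted factors, Il1b had 0.245, 0.798 and 0.154 CPM at 3 months and 8.85, 8.16 and 5.92 CPM at 25 months (log2 fold change 4.26, standard error 0.57, edgeR adjusted p = 0.00276), Il1a had 0.245, 1.01 and 0.154 CPM at 3 months and 10.6, 6.44 and 2.52 CPM at 25 months (log2 fold change 3.80, standard error 0.79, edgeR adjusted p = 0.0121) and Il6 had 0, 0.106 and 0.154 CPM at 3 months and 3.27, 3.45 and 0.586 CPM at 25 months (log2 fold change 4.74, standard error 0.97, edgeR adjusted p = 0.0112). The old mice had at most 10.6 CPM of any of these interleukins. Mmp3, stromelysin, had 0, 0.426 and 0.103 CPM at 3 months and 1.98, 4.13 and 0.762 CPM at 25 months (log2 fold change 3.69, standard error 1.01, edgeR adjusted p = 0.0323) and lost its call in 5 of 11 alternative settings. Csf1, the macrophage growth factor, and Pdgfa, a growth factor for mesenchyme, rose with log2 fold changes of 1.56 and 1.61. Mmp9 (edgeR adjusted p = 0.165), Timp1 and Ccl2 did not pass. The summed level of the macrophage list, of which 32 of 35 rose, was 1899, 2224 and 2183 CPM at 3 months and 22672, 13637 and 6116 CPM at 25 months. That of the T and NK cell list, of which 34 of 39 rose, was 100.1, 126 and 94.1 CPM and 865, 912 and 285 CPM. Their part in the result was not tested.

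Lysosomal and lipid-handling genes rose in 24 of 34 members tested and fell in none, with a median log2 fold change of 1.36. Without mouse 1 of 3 months 11 rose, and without mouse 3 of 3 months 13. Npc1, which exports cholesterol from lysosomes, had 68.4, 79.4 and 73.4 CPM at 3 months and 184, 152 and 134 CPM at 25 months (log2 fold change 1.09, standard error 0.15, edgeR adjusted p = 0.00278), and Lamp2, a lysosomal membrane protein, had 316, 315 and 259 CPM at 3 months and 606, 558 and 530.4 CPM at 25 months (log2 fold change 0.94, standard error 0.14, edgeR adjusted p = 0.0042). Mouse 1 was the highest old mouse in 32 of the 34 genes. Of 28 iron and oxidative stress genes tested, 10 rose and 1 fell, and 5 rose without mouse 3 of 3 months. Slc11a1, a metal transporter of macrophage phagosomes, had 11.5, 13.3 and 11.4 CPM at 3 months and 247, 121 and 59.2 CPM at 25 months (log2 fold change 3.56, standard error 0.49, edgeR adjusted p = 0.0029). Fth1 and Ftl1, the ferritin subunits that store iron, rose with log2 fold changes of 1.56 and 1.24. Gsta3, a glutathione transferase with a part in steroid synthesis, had 6.36, 10.1 and 8.21 CPM at 3 months and 53.7, 59.1 and 203 CPM at 25 months (log2 fold change 3.69, standard error 0.57, edgeR adjusted p = 0.00413), highest in mouse 3. Sod1, superoxide dismutase, fell (log2 fold change -0.67, standard error 0.19, edgeR adjusted p = 0.0378) and lost its call in 5 of 12 alternative settings.

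Surface epithelium genes rose in 12 of 16 members tested and fell in none, with a median log2 fold change of 1.82. Here mouse 3 was highest in 14 of the 16. Krt19, an epithelial keratin, had 36.1, 27.4 and 33.1 CPM at 3 months and 110.1, 199.5 and 182 CPM at 25 months (log2 fold change 2.35, standard error 0.24, edgeR adjusted p = 0.00133). Upk1b, a uroplakin of the ovarian surface, had 27.0, 26.02 and 25.3 CPM at 3 months and 66.2, 81.9 and 197 CPM at 25 months (log2 fold change 2.15, standard error 0.40, edgeR adjusted p = 0.00771), while Upk3b had 56.6, 42.3 and 52.2 CPM at 3 months and 53.6, 113 and 261 CPM at 25 months and did not pass (edgeR adjusted p = 0.0644). Lhx9 and Wt1, transcription factors of the gonadal surface, rose (log2 fold change 2.22, standard error 0.21, edgeR adjusted p = 0.00109, and log2 fold change 1.16, standard error 0.12, edgeR adjusted p = 0.00133). Genes of the oviduct, the neighbouring tube, gave 0 calls in 11 tested by edgeR and 0 by DESeq2, with 2 at an unadjusted edgeR p under 0.05. Ovgp1, oviductal glycoprotein, had 3.91, 3.88 and 35.5 CPM at 3 months and 2.79, 8.74 and 2.69 CPM at 25 months, highest in a young mouse.

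Of 21 endothelial and lymphatic genes tested, 9 rose and none fell, and 4 or 5 rose when mouse 2 or 3 of 3 months or mouse 1 of 25 months was left out. Plvap, of fenestrated capillaries, had 24.7, 23.8 and 23.1 CPM at 3 months and 71.96, 115 and 145 CPM at 25 months (log2 fold change 2.22, standard error 0.25, edgeR adjusted p = 0.00167), and Vwf, the von Willebrand factor, had 26.9, 23.7 and 28.9 CPM at 3 months and 82.95, 46.3 and 122 CPM at 25 months (log2 fold change 1.67, standard error 0.33, edgeR adjusted p = 0.00938). The lymphatic genes Lyve1, Prox1, Flt4 and Mmrn1 rose by 1.14, 0.93, 0.74 and 1.33 on the log2 scale. Pecam1, Cdh5 and Kdr, made by most endothelial cells, did not pass. Smooth muscle and pericyte genes gave 1 rise and 3 falls in 16 (6.25% and 18.75%, against 15.2% and 11.4% of all genes). The falls numbered 6 without mouse 3 of 25 months and 1 without mouse 1 of 3 months. Those that fell with all 6 mice were Actg2, an enteric actin (log2 fold change -0.96, standard error 0.19, edgeR adjusted p = 0.0106), Rgs5, a pericyte gene (log2 fold change -0.88, standard error 0.19, edgeR adjusted p = 0.0129), and Cnn1, calponin. Cnn1 lost its call in 5 of 12 alternative settings. Of 11 nerve and glia genes tested, 2 rose and 2 fell (18.2% each, against 15.2% and 11.4% of all genes), with a median log2 fold change of -0.051. Ncam1, a neural cell adhesion molecule, was among those that rose (log2 fold change 1.18, standard error 0.22, edgeR adjusted p = 0.00763). Uchl1, which neurons and oocytes share, fell from 83.7, 245 and 105 to 4.397, 7.59 and 8.96 CPM (log2 fold change -4.36, standard error 0.49, edgeR adjusted p = 0.00169), and so did Th, tyrosine hydroxylase (log2 fold change -4.56, standard error 0.93, edgeR adjusted p = 0.011).

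Fat cell markers were uneven between mice of the same age. Adipoq, adiponectin, had 9.197, 0.0532 and 0.103 CPM at 3 months and 0.0536, 9.68 and 0.234 CPM at 25 months, too low to be tested, so that mouse 1 of 3 months and mouse 2 of 25 months stood out, and Cidec, a lipid droplet protein, was also highest in these mice, with 4.79, 0.585 and 0.205 CPM at 3 months and 0.107, 8.74 and 0.586 CPM at 25 months. Fabp4, a fatty acid-binding protein of fat, endothelium and macrophages, rose (log2 fold change 4.02, standard error 0.66, edgeR adjusted p = 0.00496), and Plin4, a lipid droplet protein, fell (log2 fold change -4.50, standard error 0.77, edgeR adjusted p = 0.00578). None of 6 red blood cell genes passed in edgeR or DESeq2 or had an unadjusted edgeR p under 0.05, with Hbb-bs at 114, 29.0 and 28.3 CPM at 3 months and 14.2, 21.6 and 102 CPM at 25 months.

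The median changes of mitochondrial genes were small. None of 13 genes encoded in the mitochondrial genome passed in edgeR or DESeq2 or had an unadjusted edgeR p under 0.05, and mt-Co1 had 11075, 10475 and 9809 CPM at 3 months and 9073, 11583 and 10469.8 CPM at 25 months (log2 fold change -0.0037, edgeR adjusted p = 0.992). Of 37 nuclear genes of complex I tested, 6 fell (16.2%, against 11.4% of all genes) and 0 rose, with a median log2 fold change of -0.29. The fold change was positive in 3 of the 37. In 19 of the 37 all old mice were below all young mice, which held for 22.2% of all genes. The number that fell was 14 without mouse 3 of 25 months and 1 or 3 without any other single mouse. Ndufs4 fell from 84.8, 71.5 and 86.5 to 28.6, 38.98 and 49.5 CPM (log2 fold change -1.04, standard error 0.21, edgeR adjusted p = 0.01). Of 23 immediate early and heat shock genes tested, 3 rose and 4 fell. The chaperones Hsph1 (log2 fold change -1.54, standard error 0.19, edgeR adjusted p = 0.00232) and Hsp90aa1 (log2 fold change -1.08, standard error 0.17, edgeR adjusted p = 0.0044) were among those that fell, and the immediate early genes Fos, Jun and Egr1 did not pass. When mouse 3 of 25 months was left out, 6 rose. Of 18 circadian clock genes tested, 8 rose and none fell. Per2 had 22.2, 18.3 and 30.2 CPM at 3 months and 63.9, 76.03 and 81.1 CPM at 25 months (log2 fold change 1.65, standard error 0.21, edgeR adjusted p = 0.00227) and Hlf, a clock-driven transcription factor, had 17.5, 18.3 and 16.8 CPM at 3 months and 68.4, 79.2 and 55.3 CPM at 25 months (log2 fold change 1.95, standard error 0.16, edgeR adjusted p = 0.000801), while Arntl, Clock and Dbp did not pass. The hour of collection is not given in the sources used here.

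Some of the largest changes belonged to no list. Among the 10 largest falls, Saa2, an acute-phase protein with a near copy in Saa1, had 7.93, 5.43 and 17.04 CPM at 3 months and no count at 25 months, at least 61.6-fold lower (edgeR adjusted p = 0.00265). Zar1l, an oocyte gene, also had no count at 25 months, at least 28.8-fold lower (edgeR adjusted p = 0.00175). Cldn18, a tight junction protein, had 50.5, 2.55 and 11.6 CPM at 3 months and 0, 0.105 and 0.293 CPM at 25 months (log2 fold change -7.31, standard error 1.39, edgeR adjusted p = 0.00843). Plekhg4 had 13.4, 190.1 and 20.9 CPM at 3 months and 0.268, 0.314 and 1.46 CPM at 25 months (log2 fold change -6.79, standard error 1.33, edgeR adjusted p = 0.0094), and Miox, an enzyme of inositol breakdown, had 9.197, 6.12 and 5.801 CPM at 3 months and 0, 0.0523 and 0.176 CPM at 25 months (log2 fold change -6.45, standard error 0.67, edgeR adjusted p = 0.00133). Apoc3, an apolipoprotein, fell by 6.60 on the log2 scale. Among the 10 largest rises, Tspan10, a tetraspanin, had 0, 0.1596 and 0.103 CPM at 3 months and 11.7, 10.5 and 7.44 CPM at 25 months (log2 fold change 6.75, standard error 0.62, edgeR adjusted p = 0.000992). Ly6c2, a monocyte and T cell antigen with a near copy in Ly6c1, had 0.245, 0.213 and 0.462 CPM at 3 months and 24.99, 54.99 and 10.1 CPM at 25 months (log2 fold change 6.59, standard error 0.75, edgeR adjusted p = 0.00175), and Pira2, of a family of leukocyte receptors, had 0.0489, 0.106 and 0 CPM at 3 months and 20.7, 6.54 and 2.402 CPM at 25 months (log2 fold change 7.42, standard error 1.13, edgeR adjusted p = 0.00405).

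From 18 to 25 months few genes passed with 3 mice at each age. Of 17371 genes tested, edgeR called 0 higher and 1 lower at 25 months (0% and 0.00576%), with 1464 and 907 (8.43% and 5.22%) at an unadjusted p under 0.05, while DESeq2 called 465 and 174. The gene called lower was Gm42031 (ENSMUSG00000110386, chr8:85125872-85132289), a lincRNA named after its values were seen, with 13.6, 12.9 and 12.9 CPM at 18 months and 0, 0.0523 and 0.0586 CPM at 25 months (log2 difference -8.27, edgeR adjusted p = 0.0136), and no count in the 3-month mice. The intermediate ages share the 3-month mice, and the genes were chosen by their difference at 25 months, which enlarges the medians at that age, so the following is a description. Over the 2692 genes that rose, the median difference from 3 months on the log2 scale of CPM plus 0.5 was 0.19 at 6, 0.24 at 9, 0.48 at 12, 0.73 at 18 and 1.43 at 25 months. Over the 2021 that fell it was -0.24, -0.34, -0.41, -0.73 and -1.18. Among granulosa genes, Inhba had 1463, 365 and 485 CPM at 18 months, within or above the range of the young mice, and 4.08, 4.08 and 16.5 at 25 months (log2 difference -6.58, edgeR adjusted p = 0.215). Fst had 319.7, 71.1 and 172 CPM at 18 months and 4.72, 5.599 and 8.202 at 25 months (log2 difference -4.96, edgeR adjusted p = 0.14), and Nr5a2 had 403, 144 and 368 and 22.2, 22.9 and 22.7 CPM (log2 difference -3.79, edgeR adjusted p = 0.109). In these 3 the ages did not overlap, and none passed. Gpnmb and the mast cell gene Tpsb2 did not pass either, with an edgeR adjusted p of 0.703 for Gpnmb and 0.895 for Tpsb2.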

How the data were processed

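The deposited table holds raw read counts per gene for 24 libraries, made by the authors from ovary RNA and not normalized. The submitters' processing notes name the aligner STAR and the genome build mm10, and the study's methods name the NovoMagic online tool. The version of STAR, the counting program, the annotation and the strand setting are not given in the sources used here, so reads of overlapping genes may be shared. Of 54532 gene identifiers, 54495 were found in the GENCODE M21 annotation of GRCm38, which gave symbols and coordinates. Samples were grouped by the age and condition in the labels.

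The 3 libraries of 25 months were tested against the 3 of 3 months, and separately against the 3 of 18 months, with edgeR 4.0.16 in R 4.3.3: low counts removed by filterByExpr, TMM normalization, quasi-likelihood test, two-sided, and Benjamini-Hochberg adjustment over all genes tested at a threshold of 0.05. CPM values use TMM over the 18 natural aging libraries. Alternatives were DESeq2 1.42.0 with its Wald test, RLE scaling in edgeR, testing without a filter, at least 10 counts in every mouse, the replicate number as a block, all 18 natural aging libraries in 1 fit, and leaving out each library. The main tests did not pair the samples by replicate number. The test scripts were checked on simulated counts in which 200 genes had known changes. Fewer genes were changed there than were called between 25 and 3 months, so the check does not cover that setting.

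Named genes were the 10 largest rises and falls whose mean reached 2 CPM and whose groups did not overlap (antibody and T cell receptor segments and predicted genes left out), examples from the 4 members of each list with the smallest p, further members of highest level where fewer passed, fixed cell type markers, and genes named after their values were seen. Members and lists were chosen with earlier results of these data known. Promoters came from RefSeq (GRCm38.p6). Shares of counts are limited by counting error, by differences between mice and, for segments, by reads assigned to a relative. Depth leaves genes near 3 counts per library undecided. The libraries of treated mice were not used here.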

Additional observations from a re-analysis of the deposited data

Results flagged for a closer look

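Gm42031, a lincRNA, was the gene that edgeR called different between 25 and 18 months, with a log2 difference of -8.27. It was chosen after its values were seen. The 18-month mice had 13.6, 12.9 and 12.9 CPM and the 25-month mice 0, 0.0523 and 0.0586 CPM, while the 3-month mice had no count. At 12 months the mice had 0, 0.159 and 3.75 CPM. Its change from 3 months thus differed between 18 and 25 months, and the call was lost with the replicate number as a block, with at least 10 counts required in every mouse, and without mouse 1 or mouse 3 of 18 months or mouse 2 of 25 months.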

How the results depend on the processing

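Between 25 and 3 months the numbers of genes that rose and fell were 2663 and 2064 with RLE normalization, 3041 and 2502 with DESeq2, 2903 and 2263 without a filter, 2188 and 1544 with at least 10 counts in every mouse, and 3311 and 2840 with all 18 natural aging libraries in 1 fit. Leaving out 1 mouse gave 1674 to 3171 rising and 1226 to 2752 falling genes, the most without mouse 3 of 25 months and the fewest without mouse 3 of 3 months. Between 25 and 18 months, where edgeR called 0 and 1, the numbers higher and lower were 465 and 174 with DESeq2, 30 and 33 without a filter, 127 and 61 with all 18 libraries, and 0 and 0 with at least 10 counts in every mouse. Leaving out 1 mouse gave 0 to 3 higher and 0 to 3 lower. The cause of these differences was not tested.

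The main tests did not pair the samples by the replicate numbers that the ages share. The deviations of same-numbered samples correlated at 0.053, 0.034 and 0.097 between 25 and 3 months, where each sample correlated best with its own number. Between 25 and 18 months they correlated at 0.138, 0.078 and 0.242, and mouse 2 of 25 months correlated best with mouse 1 of 18 months (0.106). With 3 samples per age these correlations cannot decide whether the numbers mark a pairing. With the replicate number as a block, 2376 genes rose and 1820 fell at 25 against 3 months, and 0 and 0 were called at 25 against 18 months. Cyp17a1 then had a log2 fold change of -3.14, and -4.76 without mouse 3 of 25 months, against 1.17 with all 6 mice.

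Of 158 named genes that passed and were followed through the alternatives, 137 passed in every alternative that tested them, 0 reversed, and 21 lost the call in at least 1: Actg2, Adgre1, Akr1c18, Bgn, Cdkn2b, Cnn1, Cxcl13, Cyp19a1, Fmod, Foxp3, Gatm, Hsd17b7, Igha, Il1a, Mmp3, Ms4a1, Nr0b1, Por, Ptgfr, Rgs5 and Sod1. Some other named genes were not followed in this way, among them Grem1, Tgfbr2, Tgfbr3, Ltbp2, Ltbp4, Adamts2, C1qb, Prox1, Flt4, Fth1 and Ftl1. Named genes that did not pass changed direction when 1 mouse was left out, over these ranges of log2 fold change: Ovgp1 from -2.39 to 0.28, Hbb-bs from -1.68 to 0.69, mt-Co1 from -0.0925 to 0.077 (0.0024 with at least 10 counts in every mouse), Cyp17a1 from -4.76 to 2.26, Lhcgr from -2.11 to 0.21, Cidec from -2.41 to 2.97, Cdkn1a from -0.23 to 1.06, Kit from -0.072 to 0.65 and Tgfb1 from -0.32 to 0.41. With at least 10 counts in every mouse most low genes were not tested, so that 9 oocyte genes fell, and 6 B cell, 14 T and NK cell and 5 constant-region genes rose. In all, 3 ovaries per age from 1 table leave modest changes undecided, and the old group holds 1 ovary unlike the others in steroid genes. Mice of 9, 12 and 18 months also differed within their age in the median of the steroid list.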
